A study of Mus musculus with 6 samples.

Results

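The genes described here encode 4 fatty acid elongases (Elovl1, Elovl2, Elovl3 and Elovl5) and 2 fatty acid desaturases (Fads1 and Fads2). They were found by gene symbol, and all 6 were present among the 54086 features of the deposited expression table. Levels were measured by RNA-seq of whole liver in 3 libraries from HKO mice, which lack Mettl3 in hepatocytes, and in 3 libraries from flox/flox mice, whose Mettl3 alleles carry recombination sites but are intact. All animals were 8 weeks old and ate normal chow. METTL3 is the methyltransferase that deposits m6A on mRNA. For the driver of the deletion, the deleted exons and the sex of the mice, the sources used here give nothing. The labels do not tie a library to 1 animal, and p-values therefore describe the spread among these libraries, which may be technical.

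Elongases sit in the endoplasmic reticulum and perform the condensing step of a cycle that adds a pair of carbons to a fatty acyl-CoA. Desaturases of the Fads family place a double bond between an existing one and the carboxyl end, with electrons from cytochrome b5. In liver, Fads2 takes the opening step from linoleic and alpha-linolenic acid, Elovl5 lengthens the product, and Fads1 acts next to give arachidonic and eicosapentaenoic acid. Elovl2 carries out the later elongations towards docosahexaenoic acid. Elovl1 and Elovl3 act mainly on saturated and monounsaturated chains, Elovl1 for the very long acyl groups of sphingolipids and Elovl3 for neutral lipids of skin, brown fat and liver. Elovl5, Fads1 and Fads2 are classical targets of the lipogenic transcription factor SREBP-1c, while liver Elovl3 is known in mice to follow the circadian clock and to be higher in males.

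The 2 enzyme families share a pattern of histidines, with 2 residues of any kind after the lead histidine and then a pair of histidines, which binds the iron of desaturases and is essential in elongases. The coding stretch around each in-frame match is shown because it is what unites the 6 members at the level of sequence. Capitals mark the codons of the 3 histidines, and sequences are those of the principal GENCODE transcripts on GRCm38.
Elovl1: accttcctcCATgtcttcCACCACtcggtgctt
Elovl2: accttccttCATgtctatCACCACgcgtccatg
Elovl3: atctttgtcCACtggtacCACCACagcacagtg
Elovl5: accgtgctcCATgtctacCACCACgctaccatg
Fads1, first match: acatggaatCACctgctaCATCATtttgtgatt
Fads1, the other match: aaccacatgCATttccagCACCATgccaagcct
Fads2: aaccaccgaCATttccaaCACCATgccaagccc
Each elongase held 1 match, at codons 141 to 145 in Elovl1, 146 to 150 in Elovl2 and Elovl3, and 143 to 147 in Elovl5. Fads2 held its match at codons 217 to 221 and Fads1 at codons 197 to 201 and 219 to 223. The Fads2 stretch resembles the Fads1 match at 219 to 223, and no Fads2 match was found for the Fads1 match at 197 to 201. Whether Fads2 holds a related stretch without this spacing was not examined. A match is only this spacing of histidines and does not show that the site binds iron. Such a match was present in 2.32% of 9745 tested genes with a principal transcript. Coding identity was 68.1% between Elovl2 and Elovl5, 69.4% between Fads1 and Fads2, and 62.8 to 65.9% for the other 5 elongase pairs, so no member is a near-identical copy of another.

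The libraries held 16529358 to 18556076 reads, rebuilt from FPKM, the deposited unit (fragments per kilobase of gene, scaled by library depth), and 371 to 13091 reads for a member in a library. The authors' scaling moved with genotype, since FPKM summed to 318212 to 360226 in HKO libraries and to 453837 to 542601 in flox/flox libraries. Mettl3 itself stood at 2.22 ± 0.210 FPKM in HKO and 2.01 ± 0.146 FPKM in flox/flox libraries (limma adjusted p = 0.582), so the gene-level value does not check the labels. Hepatocyte markers summed to 27844 to 48497 FPKM in HKO and 54965 to 89646 FPKM in flox/flox libraries, with 1 of 10 lower. Kupffer cell and macrophage markers summed to 519.7 to 671 FPKM in HKO and 108 to 408 FPKM in flox/flox libraries, with 2 of 11 higher and no overlap between the groups for any of the 11. Over all 11086 tested genes 5.95% were called higher and 6.86% lower, and 41.4% did not overlap between the groups. Quantile normalization called 7 of the 11 higher and 2 scalings to library sums, one to an equal sum leaving out the 20 highest genes and one by each library's own FPKM sum, each called 11. Of the neutrophil, lymphocyte, stellate cell and cholangiocyte markers tested, 3 of 3, 2 of 2, 3 of 9 and 1 of 2 were higher, and of 8 endothelial and 5 erythroid markers none was called. Listed were 6 neutrophil, 10 lymphocyte and 6 cholangiocyte genes, the rest lying under the filter of a mean of 1 FPKM. In flox/flox libraries S100a8, S100a9, Csf3r, Nkg7 and Ptprc averaged 0.287, 0.679, 0.508, 0.268 and 0.421 FPKM. These neutrophil and lymphocyte genes passed the filter only through the HKO libraries, which largely fixed their direction. With the 2 sums 7 of the 9 stellate markers were higher. Of all 11086 tested genes these sums called 2364 and 3127 higher. The hepatocyte median was -0.55 on the log2 scale and turned to 0.13 with quantile normalization. In bulk tissue fewer cells of a type and less RNA per cell cannot be told apart, and the part of either marker list in the results below was not tested.

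Of the 6 members 1 passed the test, Elovl3, which was lower in HKO livers, and none was called higher. The test was limma on log2(FPKM + 1) with genotype as the only term, called at a Benjamini-Hochberg adjusted p under 0.05 over 11086 genes with a mean of at least 1 FPKM. Of all tested genes 12.8% were called, 6.86% lower and 5.95% higher, so 1 in 6 members is near the share of all genes. The groups did not overlap for 4 members (Elovl1, Elovl3, Elovl5 and Fads1), against 41.4% of all tested genes. Fold changes were negative for 5 of the 6 members, with a median log2(FPKM + 1) difference (HKO minus flox/flox) of -0.55, beside -0.06 over all tested genes. With libraries set to an equal sum leaving out the 20 highest genes, the members' median was -0.15 with 4 negative, beside 0.26 over all genes. With each library's own FPKM sum it was -0.048 with 3 negative, beside 0.34 over all genes, and quantile normalization gave -0.065 with 4 negative, beside -0.033.

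**Figure D1:**
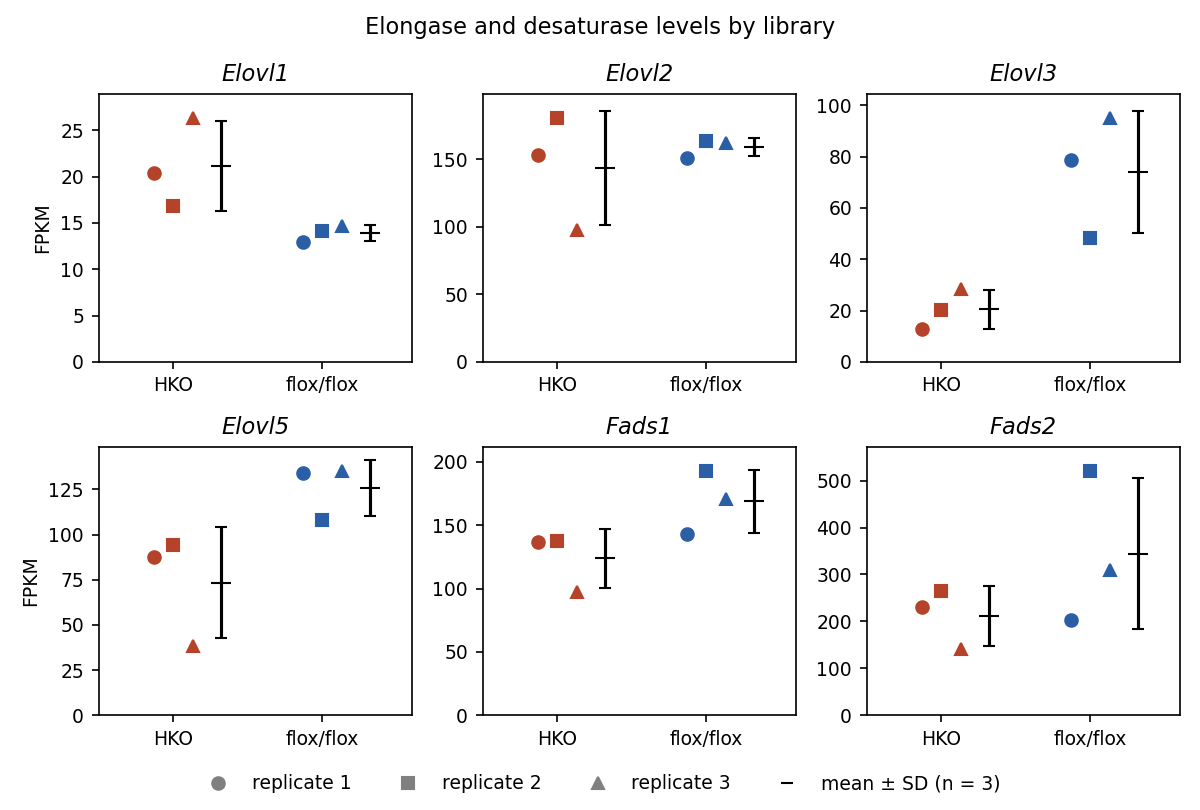
FPKM (y axis, from 0) of each member in the 3 HKO and 3 flox/flox libraries, with the mean and SD beside the points and a marker shape for each replicate number. Elovl3 is lower in every HKO library, Elovl1 is higher in every HKO library, and HKO replicate 3 is the lowest of all 6 libraries for Elovl2, Elovl5, Fads1 and Fads2.

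Elovl3 (ENSMUSG00000038754, GRCm38.p6 chromosome 19, 46131897 to 46135307, plus strand) stood at 12.8, 20.3 and 28.3 FPKM across HKO replicates 1 to 3 and at 78.6, 48.3 and 95.1 FPKM across flox/flox replicates 1 to 3. The highest HKO library lay below the lowest flox/flox library, although the values spread 2.20-fold within HKO and 1.97-fold within flox/flox. Means were 20.5 ± 7.71 FPKM in HKO and 74.0 ± 23.7 FPKM in flox/flox libraries (SD, n = 3 each). On the log2(FPKM + 1) scale Elovl3 fell by 1.82, with an SE of 0.34 and a 95% interval of -2.63 to -1.003 (limma adjusted p = 0.0265). These values rest on 371 to 942 reads per HKO library and 1107 to 2162 reads per flox/flox library. Elovl3 stayed called under 4 other scalings, with log2 fold changes of -1.75 with median-of-ratios scaling, -1.56 with quantile normalization, -1.43 when libraries were set to an equal sum leaving out the 20 highest genes, and -1.33 with each library's own FPKM sum. Of all genes 9.35% were called with quantile normalization. The call was lost without HKO replicate 1 (adjusted p = 0.0715), HKO replicate 2 (adjusted p = 0.0743) or flox/flox replicate 3 (adjusted p = 0.0785). No other feature of the deposited table overlaps Elovl3, and the authors' gene model ends 387 bases short of the GENCODE one.

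Because Elovl3 follows the clock in mouse liver, clock genes were read beside it. Of 15 tested clock genes and outputs 1 was lower in HKO livers and 14 did not pass, with a median of -0.24 beside -0.06 over all genes. Over all tested genes 6.86% were called lower. The gene called was Cry1, a repressor of the clock, at 1.90, 1.95 and 1.81 FPKM in HKO and 4.32, 2.85 and 2.95 FPKM across flox/flox replicates 1 to 3 (log2 fold change -0.58, limma adjusted p = 0.0493). Cry1 was called in 1 of 4 other scalings, with the same sign in all. With the 2 sums the list median was 0.07 and 0.15, beside 0.26 and 0.34 over all genes. They called none of the list, against 23.3% and 29.9% of all genes. Flox/flox replicate 1 stood apart from the other flox/flox libraries in several clock genes, chosen after their values were seen. Per2 stood at 1.32 FPKM there and at 10.3 and 9.05 FPKM in flox/flox replicates 2 and 3, and Per3 at 0.937 FPKM there and at 7.36 and 5.13 FPKM. Nr1d1 and Nfil3, both repressors, were high there, Nr1d1 at 58.8 FPKM against 10.5 and 24.9 FPKM and Nfil3 at 24.0 FPKM against 7.65 and 9.60 FPKM. Without that library the log2 fold change of Elovl3 was -1.75 (limma adjusted p = 0.0477). Leaving out 1 library cannot address a difference in sampling time between the groups. The sources used here give no sampling times, and their part in the Elovl3 difference was not tested.

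The study deletes an m6A writer, so the transcripts were also read for GGACT, a common form of the m6A consensus. Elovl3 is shown here because it is the member called, with the motif in capitals.
Elovl3 coding site starting at transcript base 248: acgtttcaGGACTtaaggccc
Elovl3 3′ UTR site starting at transcript base 1220: aggagataGGACTgaggtcct
Elovl3 3′ UTR site starting at transcript base 1321: ggatttgtGGACTtggagggg
Elovl3 3′ UTR site starting at transcript base 1344: gggagagtGGACTgactctgt
Elovl3 held 4 matches in its 1881-base transcript, 3 of them in the 3′ UTR, or 2.13 per kilobase, at percentile 90.02 of the 9745 transcripts. Fads2 held 9 matches (2.86 per kilobase, percentile 97.0) and Elovl1 held 5 (2.76 per kilobase, percentile 96.6). Elovl5 held 4 (1.44 per kilobase), Fads1 3 (0.867 per kilobase) and Elovl2 3 (0.781 per kilobase), beside a median of 1.05 per kilobase. At least 1 match was present in 91.8% of these transcripts. A match is only these letters, and methylation was not measured in these libraries.

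Elovl1 (ENSMUSG00000006390, chromosome 4, 118428093 to 118432953, plus strand), the elongase that feeds sphingolipids, was the member with a positive fold change. It stood at 20.3, 16.8 and 26.3 FPKM across HKO replicates 1 to 3 and at 12.9, 14.1 and 14.7 FPKM across flox/flox replicates 1 to 3. Every HKO library lay above every flox/flox library, and the HKO libraries were the more spread. Means were 21.2 ± 4.83 FPKM in HKO and 13.9 ± 0.890 FPKM in flox/flox libraries (SD, n = 3 each). With the deposited scaling Elovl1 did not pass (log2 fold change 0.55, SE 0.17, limma adjusted p = 0.0761). With equal sums leaving out the 20 highest genes it was higher (log2 0.93, limma adjusted p = 0.0233), as with each library's own FPKM sum (log2 1.02, limma adjusted p = 0.0191), where 23.3% and 29.9% of all genes were called. Its positive sign held in all 18 alternatives. Its last 53 bases overlap Cdc20, a mitotic activator gene on the opposite strand, which averaged 4.33 FPKM in HKO and 0.212 FPKM in flox/flox libraries. The sources used here do not say whether counting used strand.

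Elovl5 (ENSMUSG00000032349, chromosome 9, 77917364 to 77984519, plus strand), which lengthens polyunsaturated chains after the opening desaturation, stood at 87.7, 94.0 and 38.0 FPKM across HKO replicates 1 to 3. Across flox/flox replicates 1 to 3 it stood at 134, 108 and 135 FPKM. The groups did not overlap, but HKO replicate 3 lay far under the other HKO libraries, a 2.47-fold spread against 1.25-fold within flox/flox. The means were 73.2 ± 30.6 FPKM in HKO and 125.7 ± 15.5 FPKM in flox/flox libraries, and the difference did not pass (log2 fold change -0.87, SE 0.34, 95% interval -1.69 to -0.05, limma adjusted p = 0.131). Without HKO replicate 3 the log2 fold change was -0.46, and it was -0.51 with quantile normalization, -0.47 with the sum without the 20 highest genes and -0.37 with each library's own sum. It was negative in all 18 alternatives, and none called it.

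Elovl2 (ENSMUSG00000021364, chromosome 13, 41182381 to 41220405, minus strand), the elongase of the last steps towards docosahexaenoic acid, stood at 153, 181 and 97.4 FPKM across HKO replicates 1 to 3. The flox/flox replicates 1 to 3 held 151, 164 and 163 FPKM. The HKO libraries lay on both sides of the narrow flox/flox range. Means were 144 ± 42.5 FPKM in HKO and 159 ± 6.81 FPKM in flox/flox libraries (log2 fold change -0.19, 95% interval -0.74 to 0.36, limma adjusted p = 0.604). The sign was not stable, as quantile normalization gave 0.20, the sum without the 20 highest genes 0.21 and each library's own sum 0.31.

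**Figure D2:**
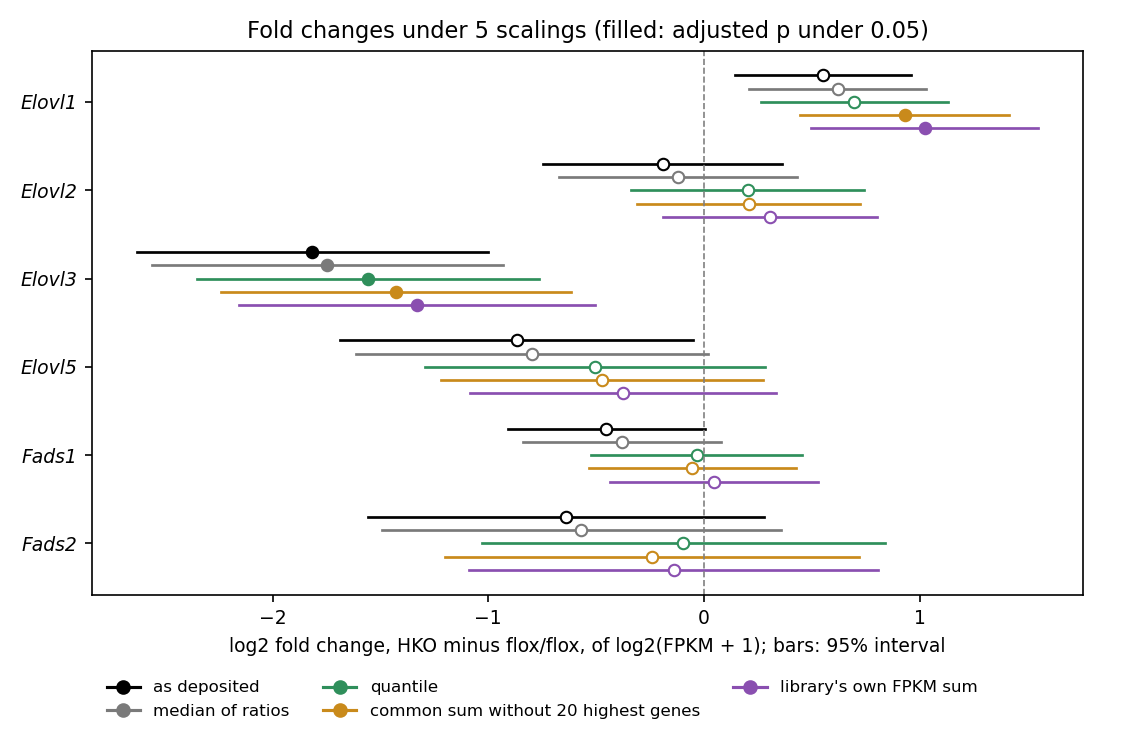
Log2 fold change of each member (x axis, HKO minus flox/flox, points) with its 95% interval (bars) under the deposited scaling and 4 alternatives, filled where limma's adjusted p was under 0.05. Elovl3 stays on the negative side and Elovl1 on the positive side under all 5, while Elovl2 crosses 0 under 3 of them.

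Fads1 (ENSMUSG00000010663, chromosome 19, 10182888 to 10196870, plus strand) and Fads2 (ENSMUSG00000024665, chromosome 19, 10064164 to 10101503, minus strand) lie in a cluster with Fads3. By the authors' gene models 81384 bases separate Fads2 and Fads1, and 4492 bases separate Fads3 and Fads2. The Fads2 model ends short of the GENCODE one on the Fads3 side. Fads1 stood at 137, 138 and 97.2 FPKM across HKO replicates 1 to 3 and at 143, 193 and 171 FPKM across flox/flox replicates 1 to 3. Every HKO library was below every flox/flox library, the nearest pair differing by little. Means were 124 ± 23.0 FPKM in HKO and 169 ± 24.9 FPKM in flox/flox libraries (log2 fold change -0.45, SE 0.19, 95% interval -0.91 to 0.00, limma adjusted p = 0.151). The value came close to 0 under 3 scalings, at -0.033 with quantile normalization, -0.054 with the sum without the 20 highest genes and 0.045 with each library's own sum.

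Fads2 stood at 231, 264 and 141 FPKM across HKO replicates 1 to 3 and at 203, 520.3 and 308 FPKM across flox/flox replicates 1 to 3. The groups overlapped, and flox/flox replicate 2 was the highest library by far. Means were 212 ± 63.9 FPKM in HKO and 344 ± 161 FPKM in flox/flox libraries (log2 fold change -0.64, SE 0.38, 95% interval -1.56 to 0.28, limma adjusted p = 0.288). Without flox/flox replicate 2 the log2 fold change was -0.29, and without flox/flox replicate 1 it was -0.96. It was -0.097 with quantile normalization, -0.24 with the sum without the 20 highest genes and -0.14 with each library's own sum. The authors' gene model of Fads2 is 1508 bases long and stops 1399 bases before the GENCODE 3′ end, where the principal transcript has a 3′ UTR of 1498 bases.

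By level the order in HKO livers was Fads2, Elovl2, Fads1, Elovl5, Elovl1 and Elovl3, and in flox/flox livers it was Fads2, Fads1, Elovl2, Elovl5, Elovl3 and Elovl1. FPKM is per length, which allows this reading between genes, within the limit of the gene models. In HKO livers the ranges of neighbours overlapped for Fads2 and Elovl2, Elovl2 and Fads1, and Elovl1 and Elovl3. In flox/flox livers only Fads1 and Elovl2 overlapped among neighbours. Elovl3 thus held 48.3 to 95.1 FPKM against 12.9 to 14.7 FPKM for Elovl1 in flox/flox livers, whereas the ranges of this pair overlapped in HKO livers.

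A difference between a pair of members within a library does not depend on that library's scaling beyond the pseudocount. All 15 pairs were compared by a two-sided exact permutation test of the log2 differences, which with 3 against 3 libraries cannot go below p = 0.1. The groups did not overlap for 6 pairs, at p = 0.1 each and an adjusted p = 0.25 over the 15 pairs (exact permutation test), so no pair passed. These pairs share members and are not independent, and the share without overlap among pairs of other genes was not computed. Elovl1 minus Elovl3 was 0.63, -0.26 and -0.10 across HKO replicates 1 to 3 and -2.52, -1.70 and -2.62 across flox/flox replicates 1 to 3. Elovl1 relative to Elovl3 was therefore 5.16 times as high in HKO as in flox/flox livers. Elovl2 minus Elovl3 averaged 2.77 ± 0.91 in HKO and 1.15 ± 0.52 in flox/flox libraries, and the groups lay just apart.

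Elovl2 minus Elovl5, the paired elongases of the polyunsaturated route, was 0.80, 0.94 and 1.33 across HKO replicates 1 to 3 and 0.17, 0.60 and 0.27 across flox/flox replicates 1 to 3. Every HKO library lay above every flox/flox library, with a group difference of 0.68. The other 3 pairs without overlap set Elovl1 against Elovl2, Elovl5 and Fads1, with group differences of 0.74, 1.42 and 1.004. Fads1 minus Fads2 averaged -0.74 ± 0.20 in HKO and -0.93 ± 0.47 in flox/flox libraries, and these ranges overlapped (exact permutation p = 0.7). Elovl3 minus Elovl5 averaged -1.75 ± 1.19 in HKO and -0.80 ± 0.32 in flox/flox libraries, also with overlap (exact permutation p = 0.4).

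**Figure D3:**
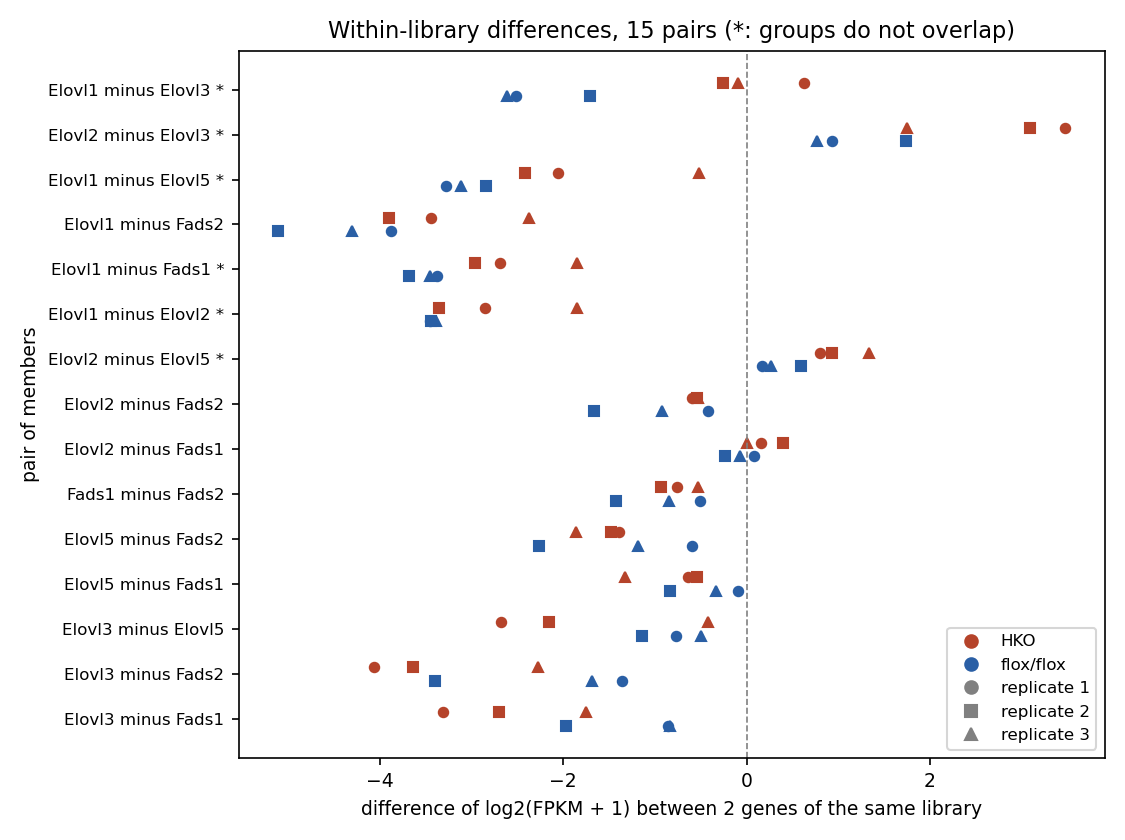
Difference of log2(FPKM + 1) between 2 members of the same library (x axis) for the 15 pairs (y axis), with HKO libraries above flox/flox libraries in each row and a marker shape for each replicate number. The 6 starred pairs do not overlap between the groups, and Elovl1 minus Elovl3 shows the widest gap.

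Within the HKO group the members did not spread alike. HKO replicate 3 was the lowest HKO library for the 4 genes of the polyunsaturated route, at -0.82 for Elovl5, -0.54 for Fads2, -0.51 for Elovl2 and -0.33 for Fads1, each as log2(FPKM + 1) minus the HKO mean. The same library was the highest HKO library for Elovl3 and Elovl1, at 0.51 and 0.33. Srebf1, which encodes SREBP-1c, lay at -1.08 there, its target Insig1 at -1.16 and the stearoyl-CoA desaturase gene Scd1 at -0.86, but the lipogenic elongase gene Elovl6 at -0.059. The sum of the hepatocyte markers was low there too, though not every marker was. The 10 markers summed to 27844 FPKM in HKO replicate 3 and to 44548 and 48497 FPKM in HKO replicates 1 and 2. Albumin (Alb), which made up much of the sum, stood at 9905 FPKM against 24763 and 27384 FPKM. Apoa1, Fgb and Cps1 were also lowest there. Apoa2 was highest there, at 5897 FPKM against 5505 and 5839 FPKM, and Apob and Hnf4a lay between HKO replicates 1 and 2. The part of these markers in the low values of the members was not tested. Within flox/flox, replicate 1 was the lowest library for 4 of the 6 members. These were Fads2 at -0.65, Fads1 at -0.23, Elovl1 at -0.097 and Elovl2 at -0.072. It was also the lowest for Elovl6 at -1.55 and for Fads3, a desaturase relative, at -1.37. In that library Srebf1 lay at -0.21, Scd1 at -0.52 and Insig1 at 0.26. The 10 hepatocyte markers summed to 89646 FPKM there, above the 54965 and 59346 FPKM of flox/flox replicates 2 and 3. Srebf1, Insig1, Scd1, Elovl6, Fads3 and the single hepatocyte markers were chosen after their values were seen. With 3 libraries a group these deviations are descriptions.

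**Figure D4:**
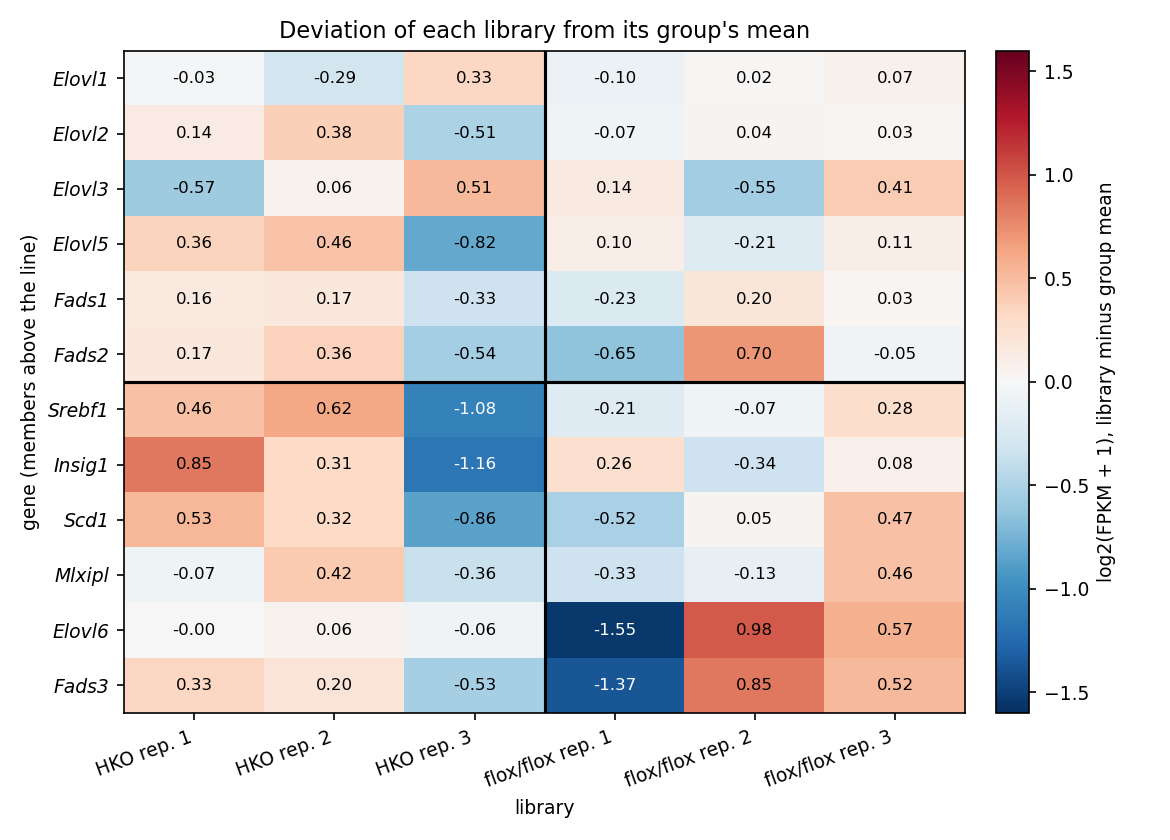
Deviation of each library from the mean of its group in log2(FPKM + 1) (colour and printed values) for the 6 members and, under the line, 6 other fatty acid genes. In HKO replicate 3 Elovl2, Elovl5, Fads1 and Fads2 lie under the group mean with Srebf1, Insig1 and Scd1, while Elovl1 and Elovl3 lie above it.

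The promoters of Elovl5 and Fads2 are shown because, of the 4 genes of the polyunsaturated route, they deviated furthest below the HKO mean in that library, Fads2 (-0.54) only slightly more than Elovl2 (-0.51). Both windows run from 250 bases before to 50 bases after the start of the RefSeq gene on GRCm38.p6. Capitals mark E-box (CACGTG) and NF-Y box (CCAAT, or its reverse complement ATTGG) matches, which do not overlap, searched on both strands together with the sterol regulatory element (TCACNCCAC).
Elovl5, chr9:77917115-77917414, plus strand: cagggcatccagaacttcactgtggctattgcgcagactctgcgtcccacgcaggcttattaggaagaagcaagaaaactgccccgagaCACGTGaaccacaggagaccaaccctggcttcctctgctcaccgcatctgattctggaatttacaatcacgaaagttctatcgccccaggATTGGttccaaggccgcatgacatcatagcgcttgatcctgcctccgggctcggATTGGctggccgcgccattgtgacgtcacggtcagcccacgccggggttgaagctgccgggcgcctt
Fads2, chr19:10101454-10101753, minus strand: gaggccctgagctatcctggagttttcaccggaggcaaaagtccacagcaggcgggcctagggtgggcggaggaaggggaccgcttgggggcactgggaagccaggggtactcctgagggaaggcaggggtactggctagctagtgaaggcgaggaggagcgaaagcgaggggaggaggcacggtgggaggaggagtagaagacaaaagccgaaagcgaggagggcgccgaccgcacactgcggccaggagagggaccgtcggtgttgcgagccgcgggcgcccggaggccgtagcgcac
The Elovl5 window held 1 E-box, 161 bases before the start, and 2 NF-Y boxes, 71 and 17 bases before it, while the Fads2 window held none of the 3 motifs. Promoters matched 4 of the 6 members (Elovl1, Elovl2, Elovl5 and Fads2) with 6 windows in all. Of these windows 1 held an E-box, 2 an NF-Y box and none a sterol regulatory element, beside 7.15%, 37.4% and 1.24% of all 32851 windows. The direct repeats DR1 and DR4 and the D-box TTATGTAA were in none of the 6 windows and in 0.0396%, 0.0152% and 0.938% of all. A missing match says only that these letters are not in this window.

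Of the enzymes that complete the elongation cycle or activate its substrates, 2 of 9 tested genes fell and none rose, with a median of -0.32 beside -0.06 over all genes. Over all tested genes 6.86% were called lower. Tecr, the reductase of the last step of the cycle, stood at 54.6, 49.9 and 40.2 FPKM in HKO and 83.6, 88.2 and 89.99 FPKM across flox/flox replicates 1 to 3 (log2 fold change -0.85, SE 0.14, limma adjusted p = 0.0214). Acsl1, the main acyl-CoA synthetase of liver, stood at 42.8, 63.0 and 46.6 FPKM in HKO and 142, 151 and 106 FPKM across flox/flox replicates 1 to 3 (log2 fold change -1.38, SE 0.20, limma adjusted p = 0.0187). Neither gene's groups overlapped, and Acsl1 was called in all 4 other scalings but Tecr in 1. The list median was 0.02 and 0.11 with the 2 sums, beside 0.26 and 0.34 over all genes.

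Among the other elongases and desaturases 2 of 6 tested genes rose and none fell, although the list median was -0.30 and turned to 0.051 with quantile normalization. Over all tested genes 5.95% were called higher. Degs1, the desaturase that completes ceramide, averaged 47.0 ± 4.34 FPKM in HKO and 28.3 ± 3.63 FPKM in flox/flox libraries (log2 fold change 0.71, limma adjusted p = 0.0279). Scd2, a stearoyl-CoA desaturase of low level in adult liver, averaged 2.69 ± 1.15 FPKM in HKO and 0.721 ± 0.165 FPKM in flox/flox libraries (log2 fold change 1.06, limma adjusted p = 0.0375). Every flox/flox library held it under 1 FPKM, at 0.733, 0.549 and 0.880 FPKM. Scd2 thus passed the filter only through the HKO libraries, which favours a rise. With a filter at a mean of 5 FPKM, which leaves Scd2 out, 1 gene of the list was called. Degs1 was called in all 4 other scalings and Scd2 in 3. Beside the 5.95% of all tested genes called higher, 1 of 8 rose in ceramide synthesis, which uses the chains made by Elovl1. This was Sptlc2, a subunit of the enzyme that starts the pathway, at 5.41 ± 0.571 FPKM in HKO and 2.55 ± 0.414 FPKM in flox/flox libraries (log2 fold change 0.85, limma adjusted p = 0.0187), called in all 4 other scalings. Cers2, the ceramide synthase for very long chains, averaged 66.0 ± 3.44 FPKM in HKO and 84.3 ± 1.07 FPKM in flox/flox libraries (limma adjusted p = 0.0755) and was chosen after its values were seen.

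Of the peroxisomal genes that shorten very long chains, a step that follows Elovl2 on the way to docosahexaenoic acid, 7 of 14 fell and none rose with the deposited scaling. That scaling called 6.86% of all tested genes lower and 5.95% higher. The list median was -0.51. Abcd3, a peroxisomal acyl-CoA transporter, averaged 43.6 ± 5.51 FPKM in HKO and 92.0 ± 22.3 FPKM in flox/flox libraries (log2 fold change -1.04, limma adjusted p = 0.0294). The thiolase gene Acaa1b (log2 -0.95), the thiolase and sterol carrier gene Scp2 (log2 -0.73) and the reductase gene Decr2 (log2 -0.65) had adjusted p of 0.0479, 0.0399 and 0.0402, and no other scaling called any of these 3, while Abcd3 was called in 1 of 4. This count depended on scaling, with 2 lower by median of ratios, 1 lower by quantile normalization, and none lower with the 2 sums. Those sums called 1 and 2 of the list higher. Over all 11086 tested genes they called 221 and 189 lower and 2364 and 3127 higher. The list median was -0.024 with each library's own sum, beside 0.34 over all genes.

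For the cytochrome b5 chain that hands electrons to the desaturases, 1 of 5 tested genes fell, the reductase gene Cyb5r3, at 80.0 ± 3.42 FPKM in HKO and 122 ± 15.8 FPKM in flox/flox libraries (log2 fold change -0.60, limma adjusted p = 0.0393), which no other scaling called. Of 6 tested acyltransferase genes for phospholipids 1 rose, Lclat1, which was called in all 4 other scalings. It averaged 14.8 ± 1.45 FPKM in HKO and 10.2 ± 0.693 FPKM in flox/flox libraries (log2 fold change 0.49, limma adjusted p = 0.0416). Of 19 transcriptional regulators 1 fell, Scap, the escort of SREBP, at 11.5, 13.3 and 11.5 FPKM in HKO and 22.7, 18.9 and 18.7 FPKM across flox/flox replicates 1 to 3 (log2 fold change -0.69, limma adjusted p = 0.0242), called in 2 of 4 other scalings. Srebf1 averaged 28.0 ± 14.7 FPKM in HKO and 64.7 ± 11.8 FPKM in flox/flox libraries, without overlap, and did not pass (log2 fold change -1.34, limma adjusted p = 0.0888). The regulator list had a median of -0.36, beside -0.06 over all genes. With the deposited scaling 6.86% of all tested genes were called lower and 5.95% higher, to be read beside the single calls of these lists. The sums called none of the 19 lower and 1 and 2 higher. Over all 11086 tested genes they called 221 and 189 lower and 2364 and 3127 higher.

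**Figure D5:**
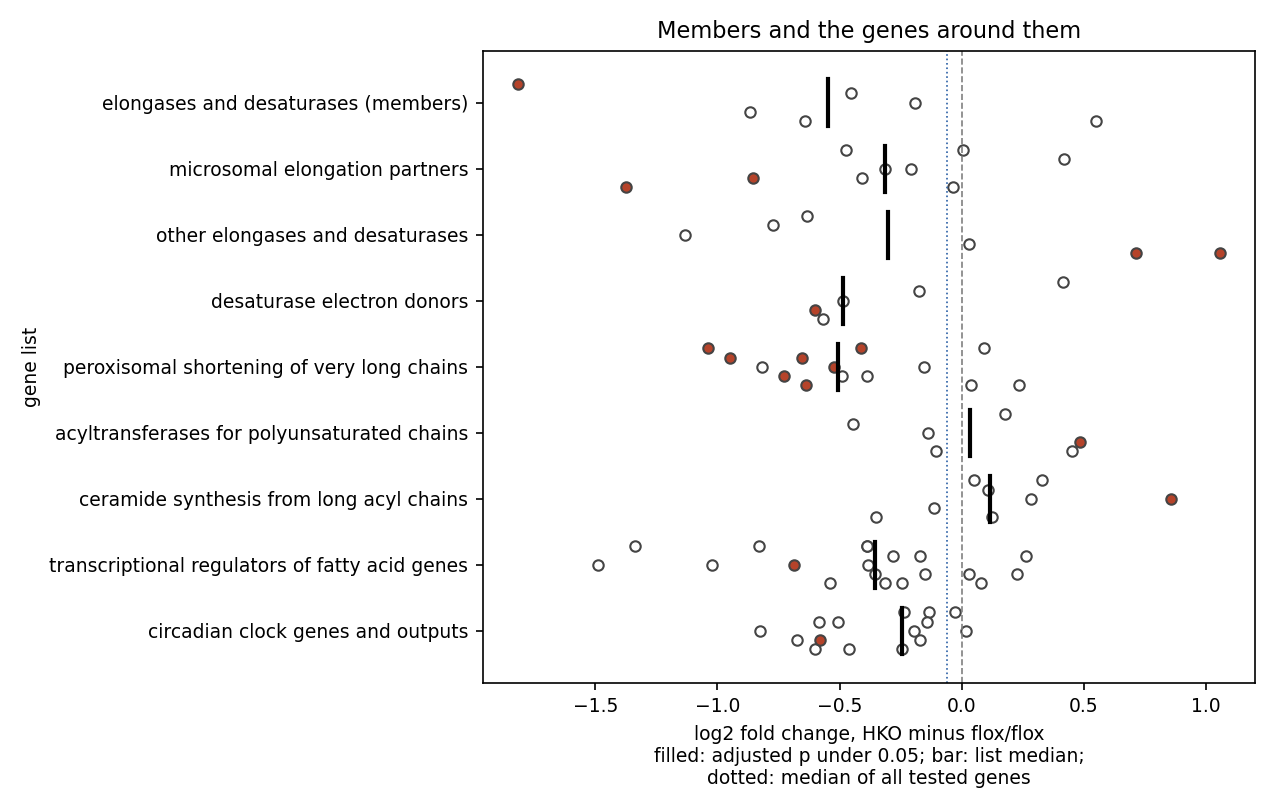
Log2 fold change (x axis, HKO minus flox/flox) of the members and of the tested genes of 8 surrounding lists (y axis), 1 point a gene, filled where limma's adjusted p was under 0.05, with the list median as a bar and the median of all tested genes as a dotted line. Filled points lie on the negative side for the peroxisomal list and on the positive side for the ceramide and acyltransferase lists, and Elovl3 is the lowest point of all.

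By Pearson correlation of log2(FPKM + 1) over the 6 libraries, among 5306 protein-coding genes with a mean of at least 5 FPKM, the genes most like Elovl3 were Mocs1 (r = 0.994) and Kat2b (r = 0.989). Those most like Elovl5 were the urate oxidase gene Uox (r = 0.999) and the threonyl-tRNA synthetase gene Tars (r = 0.998). Elovl1 was most like the mitochondrial ribosomal protein gene Mrps12 (r = 0.994) and Arf6 (r = 0.987). Elovl2 was most like Top3b (r = 0.992) and Pim1 (r = 0.976), and Fads2 like Acp2 (r = 0.985) and Cisd3 (r = 0.981). These 6 points share the genotype split and the library scaling, so the correlations only describe these libraries.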

How the data were processed

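Per the labels' protocols and series text, poly(A) liver RNA was sequenced in pairs and mapped to GRCm38.p6 by HISAT2 2.0.5, and reads per gene came from featureCounts 1.5.0-p3. The submitters' processing notes also list DESeq2 1.16.1. FPKM of 54086 features were deposited, with each gene's length in bases (per the file headers). FPKM times length gave whole reads, within 0.01 read, for 100% of values in every library. The scaling inside FPKM matched median-of-ratios size factors of those reads. Groups and replicate numbers came from sample titles. No value column was left unused. Members and lists were chosen with earlier results of these data known, which weakens any count over them.

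limma 3.58.1 in R 4.3.3 was fitted to log2(FPKM + 1) over 11086 genes, with an intensity trend, two-sided. Exact permutation tests used scipy 1.17.1 in Python 3.11.15. The fit was tested on simulated data. Alternatives changed the pseudocount, filter, scaling, variance model and libraries, or used voom on rebuilt reads. From each list up to 4 called genes with the largest change were named, and for each member the 2 genes of highest correlation were sought, of which those for Fads1 are not reported here. Transcripts came from GENCODE M21 and promoters from RefSeq, both on GRCm38. Counting error limits a member little, at 371 reads or more.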

Additional observations from a re-analysis of the deposited data

How the results depend on the processing

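Of 18 alternatives, Elovl3 was lower in HKO livers in all and called in 13, with log2 fold changes of -2.21 to -1.33. It was not called with no filter on low values (-1.82, adjusted p = 0.0587), with a replicate block (-1.82, adjusted p = 0.0509), and when any of 3 libraries was left out (range over the 6 left-out libraries -2.09 to -1.53). Members called numbered 0 without the filter and 2 with the sum without the 20 highest genes, with each library's own FPKM sum and with array weights, where Fads1 passed (-0.40, adjusted p = 0.0494). Leaving out a library gave 0 to 1. Elovl1 was called with the sum without the 20 highest genes (0.93) and with each library's own sum (1.02). Elovl2 turned to 0.20 with quantile normalization, 0.21 and 0.31 with these sums and 0.064 without HKO replicate 3. Its range over left-out libraries was -0.38 to 0.064. Fads1 turned to 0.045 with each library's own sum, where Mettl3 was higher (0.43, adjusted p = 0.0494). The cause of these shifts was not tested.

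Deviations of same-numbered libraries correlated at -0.003, -0.0996 and -0.067, and those of differently numbered HKO and flox/flox libraries at -0.035 to 0.092. Deviations within a group sum to 0, so these values are tied to each other. They do not settle whether the replicate numbers carry a pairing. With the replicate block, members called were 0, all genes called 199 and list genes called 3. All genes called numbered 1421 as reported, 510 without the filter, 2585 and 3316 with the 2 sums, 3756 with array weights, and 30 to 1454 over left-out libraries. Calls over the 8 lists numbered 16 as reported, 5 without the filter, 9 with median of ratios, 7 with quantile normalization, 39 with array weights and 0 to 18 over left-out libraries. Of the 16 list genes called, 15 kept their sign in 4 other scalings, 4 were called in all of these and 6 in none, and Pex5 turned to 0.076 with each library's own sum. The 6 pairs without overlap became 10 without HKO replicate 3 or flox/flox replicate 2, a range of 6 to 10 over left-out libraries. Elovl5 minus Fads2 ranged from -0.69 to 0.15 and Fads1 minus Fads2 from -0.063 to 0.40 over left-out libraries.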
